A study of Homo sapiens with 12 samples.

Results

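The comparison described here is that of MiaPaCa2 cells after 2 h of interferon beta with untreated MiaPaCa2 cells, 4 of the 12 libraries of the series. The members were taken by their sample labels alone: 2 libraries of untreated bulk MiaPaCa2 cells (untreated 1 and 2) and 2 of the same bulk line given 1000 U/ml of human interferon beta (IFN-β) for 2 h (treated 1 and 2). MiaPaCa2 is an established human pancreatic ductal adenocarcinoma line, grown here in DMEM with fetal bovine serum, and each library is an H3K27ac ChIP-seq peak list made with antibody ab4729. The other 8 libraries are from a second line, CFPAC1, of which the untreated and IFN-β-treated bulk groups serve below for the comparison of lines.

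H3K27ac is an acetylation of histone H3 found at active promoters and enhancers. IFN-β binds the receptor IFNAR1/IFNAR2, whose kinases JAK1 and TYK2 phosphorylate STAT factors. With IRF9 these form the complex ISGF3, which binds the interferon-stimulated response element (ISRE), a pair of GAAA blocks a few bases apart, at the promoters of antiviral genes, while STAT dimers bind the GAS element.

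The peak lists held 85442 and 71515 peaks in untreated 1 and 2, and 59896 and 69218 in treated 1 and 2, covering 78.2, 71.8, 63.6 and 77.1 Mb. Treated 1 was therefore the shortest list, and untreated 1 stood apart from the others: 22212 loci had a peak in that library alone, against 4697 to 10248 in each of the others. The Pearson correlation of gene values, across genes, was 0.897 between the untreated and 0.939 between the treated libraries, and 0.938 between untreated 2 and treated 2. The read depth is unknown. VIM, KRT8, KRT18 and KRT19 were broadly covered in all 4 libraries. CDH1, EPCAM and GRHL2, markers of well-differentiated epithelium that CFPAC1 carried, had 0 bp. This did not hold for every epithelial marker, as 7 of 25 epithelial genes lacked a peak in all 4. Peaks at ELF3 spanned 8237 bp in untreated 1, 4423 in untreated 2, 2581 in treated 1 and 3659 in treated 2. Its decrease did not pass (-0.78, adjusted p = 0.565). KLF5 was marked narrowly, from 200 bp (untreated 1) to 327 bp (treated 2). Of 16 markers of other cells, 8 and 6 were covered in the untreated and 4 and 8 in the treated libraries, with summed lengths of 21424 and 20180 bp before, 14234 and 16663 bp after treatment. PTPRC, CD3E, PECAM1, VWF, DCN, PRSS1 and GCG had 0 bp in all 4, and INS had 1608, 2555, 0 and 934 bp. The part of these markers in the results was not tested.

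H3K27ac domains became broader after 2 h at 45 genes, 25 of them among the 92 interferon-stimulated genes tested. The measure is covered length, the bp under peaks within 5 kb of a gene's start (a window of 10001 bp, centred on a gene end where the reference gave no start), compared as log2 of bp plus 500 with limma over the 4 libraries (n = 2 per group throughout, ± is the SE). Of 12974 genes tested, 45 were higher after IFN-β (0.347%) and 2 lower (0.0154%) at a Benjamini-Hochberg adjusted p under 0.05, and 860 had an unadjusted p under 0.05. The 45 lay in 39 separate regions and rose by a median of 1.85 on the log2 scale (0.99 to 3.08). Before treatment 31 of them were covered in both libraries, 4 in one and 10 in neither. The 10 entered the fit only through the treated libraries, with almost no spread between the untreated ones. The calls depended on both treated libraries and did not hold without either of them. The 10 genes with 0 bp in both untreated libraries no longer entered the test there. Fits without 1 untreated library took their residual spread from the treated pair alone, which also entered the calls. Such fits cannot support the calls. Each of the 47 called genes kept its direction in every fit with 1 library left out that it entered. Choosing the genes on these same libraries made this likely beforehand. Without centring each library the count of called genes was 0 (700 at an unadjusted p under 0.05), and it was 19, all higher, with equal peak numbers. In a fit of all 6 groups of the series 94 were higher (0.62%) and 14 lower (0.0923%), with 41 of the 47 among them.

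The order of the libraries was read next, without a threshold. Over 7 lists of interferon-stimulated genes (107 genes, 92 tested, 15 with too few covered libraries), 73 had both treated libraries above both untreated ones and 2 had both below. These are 79.3% and 2.17% of the members tested, against 9.78% and 24.7% of all genes tested. Some members share the same peaks, as RSAD2 with CMPK2 and PARP9 with DTX3L, so they are not all separate observations. For 11 of the 92 both untreated libraries had 0 bp, so they entered only through the treated ones and their order was fixed. Of all genes tested 56 were of this kind (0.432%). The same limit holds for such members in the single lists below. The median change was 0.98, against 0.01 over all genes, and 85 of the 92 changes were positive. The summed length of the 107 genes was 183404 and 166227 bp before treatment and 333963 and 308379 after it. Of the 45 genes called higher 25 belonged to these lists and 4 to other lists.

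**Figure D1:**
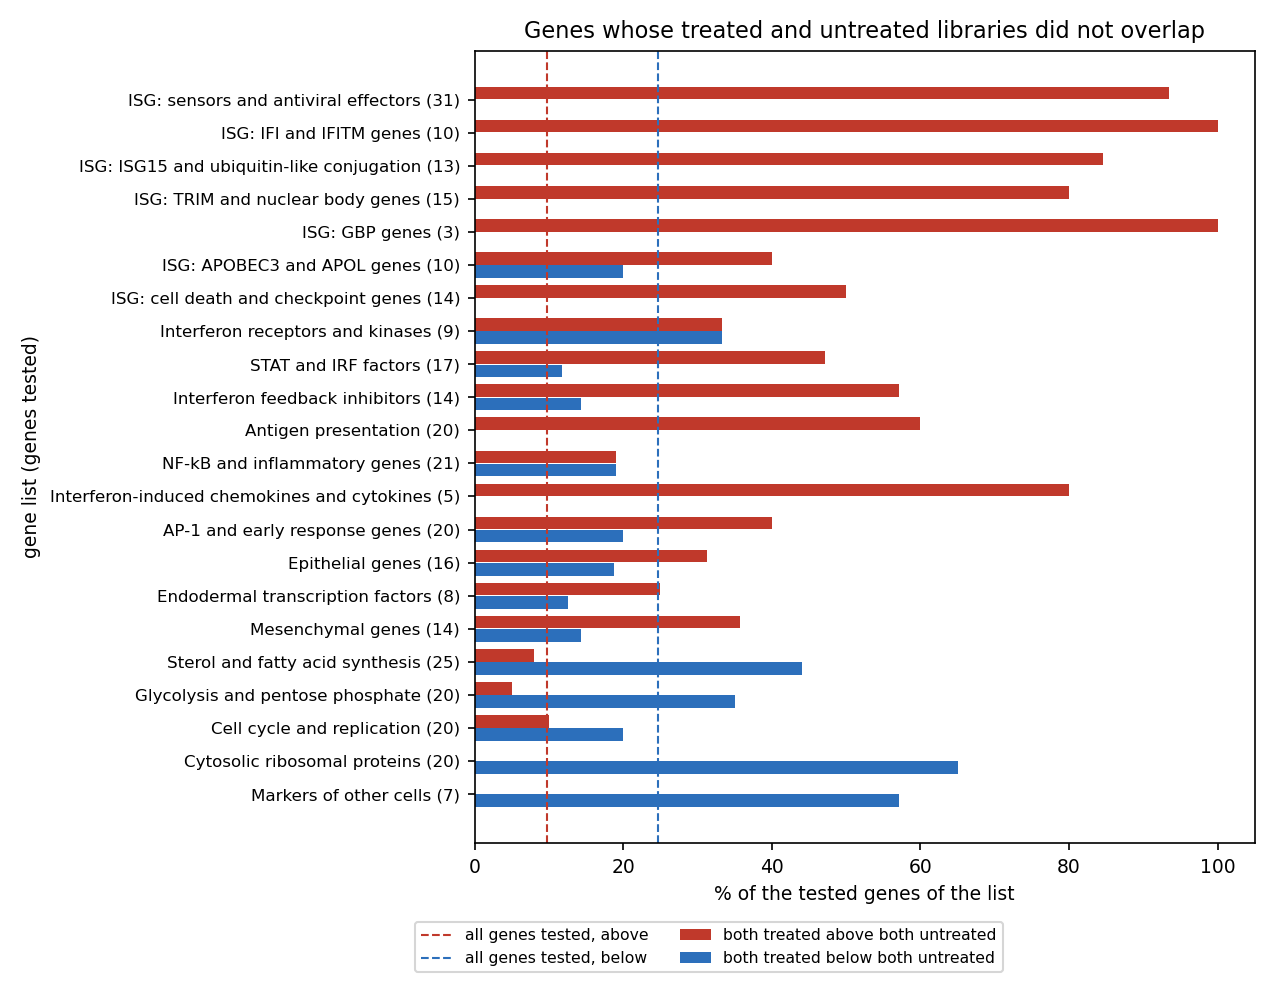
Share of the tested genes of each list (vertical axis, number tested in brackets) whose 2 treated libraries both lay above (red) or both below (blue) the 2 untreated ones, with dashed lines for all genes tested (9.78% and 24.7%). The first 5 lists of interferon-stimulated genes reach 80 to 100% above, while the ribosomal protein genes reach 0% above and 65% below.

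At the top of the pathway none of 9 genes for interferon receptors and their kinases passed in either direction, and their median change was 0.07. IFNAR1, a chain of the type I receptor, was covered over 2158 and 2175 bp in untreated and 2071 and 2087 bp in treated cells (0.04 ± 0.14, adjusted p = 0.995). TYK2 had 1748 and 1773 bp before, 1653 and 1813 bp after treatment (0.07, adjusted p = 0.993). JAK1, with 1121 and 1284 bp before, 2081 and 1926 bp after treatment, did not overlap between groups but did not pass (0.65, adjusted p = 0.384).

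STAT2, IRF9, IRF1, IRF7 and STAT3 did not pass. IRF9, the DNA-binding partner in ISGF3, had 3206 and 979 bp before treatment and 5900 and 5640 after it. Its groups did not overlap, but the untreated libraries differed from each other by more than the treated ones, and it did not pass (1.51 ± 0.38, adjusted p = 0.379). STAT2 showed 2430 and 2335 bp before, 3591 and 3633 bp after treatment (0.60, adjusted p = 0.258). IRF1, an early interferon-induced activator, had 6255 and 4803 bp before treatment and 9746 and 9781 after it, close to the full window, so that its change was bounded from above (0.87 ± 0.15, adjusted p = 0.106; 0.0210 in the fit of 6 groups). IRF7, the amplifier of interferon production, had 1967 and 748 bp before, 1176 and 200 bp after treatment and overlapped between groups (-0.61 ± 0.51, adjusted p = 0.955). STAT3 stayed within its untreated range in 1 treated library and below it in the other (5853, 6485, 4756 and 6419 bp, adjusted p = 0.995).

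RNA sensors and direct antiviral effectors held the 2 largest rises, MX2 and OAS1. Of 31 tested, 11 passed, all higher, 29 had no overlap between groups, all higher (93.5%), and the median change was 1.21. OAS1, which makes the activator of RNase L, had no peak (0 bp) in either untreated library, and then 2931 and 3206 bp (chromosome 12 at 112906962, 2.92 ± 0.19, adjusted p = 0.0123). The neighbouring OAS3 was already marked, with 962 and 747 bp, and reached 5076 and 4489 bp (2.06 ± 0.17, adjusted p = 0.0129), and OAS2 went from 0 and 329 to 3951 and 2823 bp (2.67, adjusted p = 0.0346). All members of this cluster thus ended at several kb, from different starting points. MX1, a GTPase that blocks influenza and other viruses, went from 1246 and 1412 to 6246 and 6425 bp (chromosome 21 at 41420558, 1.99 ± 0.14, adjusted p = 0.0123). Its neighbour MX2 went from 0 bp in both to 4548 and 2635 bp (3.08 ± 0.30, adjusted p = 0.0187), in a window that overlaps that of FAM3B (0 bp, then 3107 and 2574 bp). The treated libraries of MX2 differed more from each other than those of MX1.

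The cytosolic RNA sensors passed with different starting levels. RIGI had 2159 and 2199 bp before treatment and 6351 and 5893 after it (1.39 ± 0.15, adjusted p = 0.0229). IFIH1, which encodes MDA5, had 232 and 568 bp before treatment and 4660 and 3903 after it (2.52 ± 0.24, adjusted p = 0.0184), and shares its window with GCA. ZBP1, a sensor of Z-form nucleic acid, went from 919 and 871 to 3633 and 3880 bp (1.70, adjusted p = 0.0123). RSAD2, which encodes viperin, and its neighbour CMPK2 had no peak before treatment and 2522 and 1699 bp after it in a common window (2.46 ± 0.28, adjusted p = 0.0314). PLSCR1, a phospholipid scramblase, went from 1042 and 1201 to 4242 and 3468 bp (adjusted p = 0.0354). In each of these genes the groups were well apart.

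The IFIT genes, which bind foreign RNA, were already wide before treatment. IFIT1 had 4345 and 4794 bp before treatment and 5564 and 6084 after it (0.41 ± 0.12, adjusted p = 0.489), and IFIT3 had 6832 and 6873 bp before, 7714 and 7506 bp after treatment (0.23, adjusted p = 0.872). IFIT2 was at 4815 and 5451 bp before, 6805 and 6702 bp after treatment (0.46, adjusted p = 0.488). The groups of all 3 genes did not overlap, with changes that the test did not separate from the spread.

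**Figure D2:**
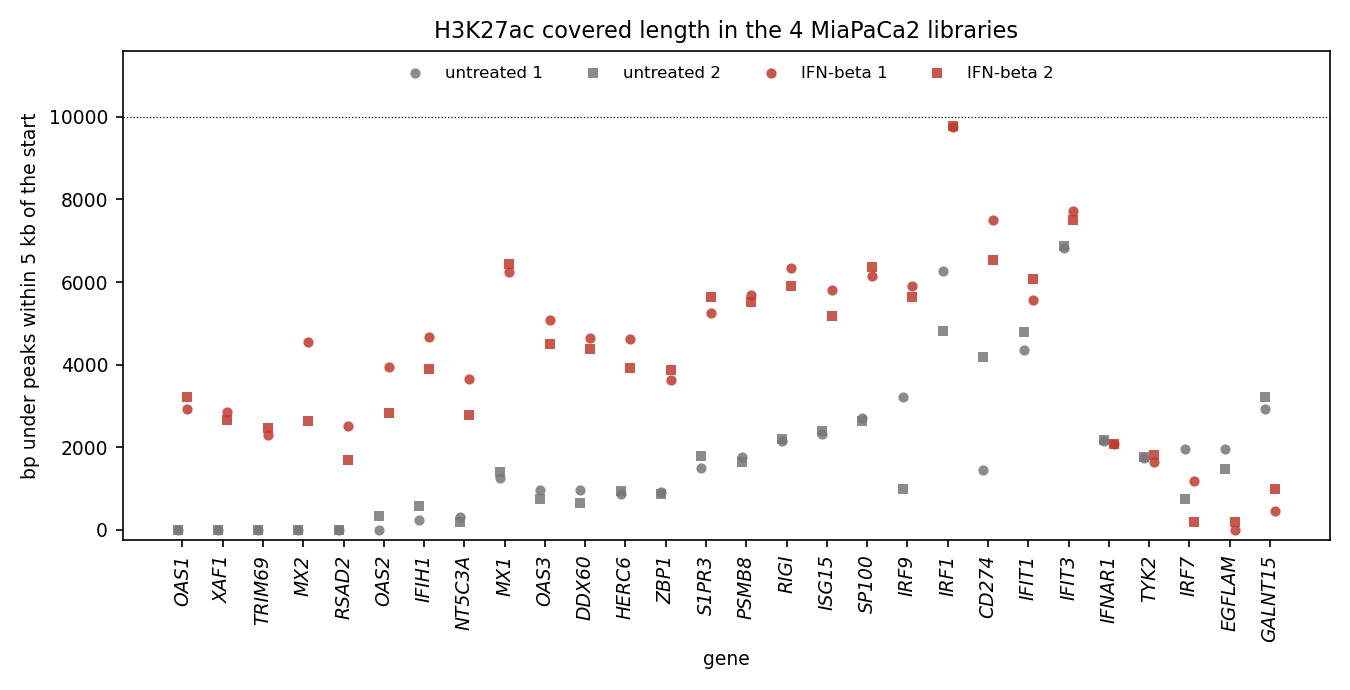
Bp under H3K27ac peaks within 5 kb of the start (vertical axis) for 28 genes (horizontal axis) in untreated (grey) and treated (red) libraries, replicate 1 as circles and 2 as squares; the dotted line is the window length of 10001 bp. Points of the genes from OAS1 to SP100 separate, IRF9 and CD274 show a wide untreated spread, and IRF1 reaches 9746 and 9781 bp.

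The ISG15 system, a ubiquitin-like tag added to proteins after interferon, rose at several of its steps. Of 13 genes tested 6 passed, 11 had both treated libraries above both untreated (84.6%), and the median was 1.16. ISG15 itself went from 2329 and 2390 to 5797 and 5187 bp (chromosome 1 at 1013497, 1.16 ± 0.15, adjusted p = 0.0459). HERC6, of the family of ISG15 ligases, went from 878 and 939 to 4622 and 3926 bp (1.85, adjusted p = 0.0183), and USP18, the protease that removes ISG15 and also restrains the receptor, from 1328 and 1202 to 3752 and 3305 bp (1.28, adjusted p = 0.0418). The groups of each were far apart. PARP9 and DTX3L, partners in ADP-ribosylation and ubiquitylation that share a bidirectional promoter, had 2143 and 1757 bp and then 6631 and 5198 bp (1.47, adjusted p = 0.0459), and PARP14 passed as well (1.36, adjusted p = 0.0443).

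Among TRIM and nuclear body genes 4 of 15 passed and 12 had no overlap, higher (80%). TRIM69 went from 0 bp in both to 2304 and 2460 bp (chromosome 15 at 44736528, 2.62 ± 0.21, adjusted p = 0.0123), and TRIM34 from 0 and 243 to 2045 and 1872 bp (adjusted p = 0.0459). SP100 and SP110, which encode nuclear body proteins, were covered before and passed with 1.18 ± 0.12 and 1.10 ± 0.13 (adjusted p = 0.0229 and 0.0346), whereas PML, the organiser of these bodies, stood at 0.26 and did not pass. IFI27, a mitochondrial protein gene often used as an interferon signature, had 362 and 0 bp before treatment and 2874 and 2351 after it (2.33 ± 0.30, adjusted p = 0.0418). It was one of 2 of the 10 tested IFI and IFITM genes that passed, the other being IFIH1, and all 10 were without overlap, higher. GBP3, a guanylate-binding protein gene, was the only one of 3 tested GBP genes to pass (682 and 349 bp, then 3299 and 2709 bp, 1.89, adjusted p = 0.0346). The other 4 GBP genes had too few covered libraries, 3 of them with 0 bp in all 4.

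Among APOBEC3 and APOL genes 1 of 10 passed, APOL6 (2205 and 2247 bp, then 4565 and 4623 bp, 0.99 ± 0.13, adjusted p = 0.0459), and the median was 0.42. Without overlap, 4 were higher (40%, against 9.78% of all genes tested) and 2 lower (20%, near the 24.7% of all genes). Among cell death and checkpoint genes 1 of 14 passed. This was XAF1, a pro-apoptotic gene, with no peak (0 bp) in either untreated library, and then 2845 and 2648 bp (chromosome 17 at 6755447, 2.79 ± 0.21, adjusted p = 0.0123). CD274, which encodes the checkpoint ligand PD-L1, had 1458 and 4177 bp before treatment and 7504 and 6534 after it. Its groups did not overlap, yet the untreated libraries were far from each other and it did not pass (1.40 ± 0.39, adjusted p = 0.447).

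Of 30 antigen presentation genes 20 were tested and 2 passed, with a median of 0.30. Without overlap, 12 were higher (60%, against 9.78% of all genes tested) and none lower (against 24.7%). PSMB8, an immunoproteasome subunit, went from 1765 and 1633 to 5675 and 5521 bp (1.56 ± 0.14, adjusted p = 0.0166), and TAP2, a subunit of the peptide transporter, from 2254 and 2182 to 5712 and 5590 bp (1.27, adjusted p = 0.0230). Their windows on chromosome 6 overlap, so they are not separate observations. TAP1 had 2271 and 2093 bp before, 3965 and 4085 bp after treatment (0.85, adjusted p = 0.0763) and NLRC5, the class I transactivator, 1440 and 1533 bp before, 4581 and 3376 bp after treatment (1.25, adjusted p = 0.101). HLA-B and HLA-C did not pass, at 0.57 and 1.08 (adjusted p = 0.734 and 0.331), nor did B2M, at 0.26 (adjusted p = 0.875), each without overlap. Class I genes are near-identical in part, so reads may be shared between them.

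Feedback inhibitors passed at 2 of 14 genes, USP18 and NMI (1815 and 1742 bp, then 4246 and 4947 bp, 1.25 ± 0.12, adjusted p = 0.0187). Without overlap, 8 of the 14 were higher (57.1%, against 9.78% of all genes tested) and 2 lower (14.3%, against 24.7%). SOCS1, which blocks JAK kinases, had 1483 and 1350 bp before, 3465 and 2704 bp after treatment (0.99, adjusted p = 0.176), and SOCS3 was at 0.26 (adjusted p = 0.875). None of the interferon-induced chemokine and cytokine genes passed. Only 5 of 15 could be tested, with a median of 0.85, and 4 of these were higher without overlap (80%) and none lower. CXCL10, the T cell attractant, had 0 bp in all 4 libraries, as had IDO1, the tryptophan-degrading enzyme.

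Of the 45 genes called higher 16 were in none of the lists. DDX60, a helicase that aids RNA sensing, went from 963 and 659 to 4656 and 4385 bp (chromosome 4 at 168318752, 2.04 ± 0.17, adjusted p = 0.0129). NT5C3A, a pyrimidine nucleotidase, went from 309 and 200 to 3649 and 2770 bp (2.38, adjusted p = 0.0183), and TMEM140 from 296 and 406 to 2475 and 2230 bp (1.84, adjusted p = 0.0232). AIPL1, a gene known from photoreceptors, had no peak before treatment and 1992 and 1838 bp after it (2.36, adjusted p = 0.0213), and ADAMTS6, a secreted protease gene, had no peak and later 1714 and 1478 bp in a window shared with LOC124900986 (2.16, adjusted p = 0.0346). SLC15A3, a lysosomal peptide transporter, went from 1735 and 1078 to 5158 and 4823 bp (1.64, adjusted p = 0.0346). SPATA13, RGS20 and KLK13 rose by 1.88, 2.04 and 1.69 (adjusted p = 0.0214, 0.0459 and 0.0283). FAM3B and GCA rose with the windows of MX2 and IFIH1. The remaining 4, LAP3, S1PR3, TNFSF8 and HRH1, fell outside the rule for naming and were named after their values were seen, with changes from 1.37 (HRH1) to 1.57 (S1PR3).

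Coverage fell at 2 genes. GALNT15, a glycosyltransferase gene, went from 2926 and 3221 to 467 and 980 bp (-1.49 ± 0.18, adjusted p = 0.0350), and EGFLAM, which encodes the matrix protein pikachurin, from 1951 and 1474 to 0 and 200 bp (-1.80 ± 0.24, adjusted p = 0.0459). With the window on the larger gene end EGFLAM turned to 0.23. The 3 genes with the next lowest p among decreases did not pass: SYT8 (-1.31, adjusted p = 0.0649), DNASE1L2 (-1.60, adjusted p = 0.0800) and LOC107984142 (-1.75, adjusted p = 0.0861).

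The remaining lists held no called gene. For AP-1 and early response genes, which mark handling and serum responses, 18 of 20 changes were positive with a median of 0.12. Without overlap, 8 were higher (40%, against 9.78% of all genes tested) and 4 lower (20%, against 24.7%). ATF3 was at the top of them with 1.00. NF-κB genes had a median of 0.09, with 4 of 21 higher and 4 lower without overlap (19% each). For sterol and fatty acid synthesis 2 of 25 were higher and 11 lower without overlap (44%), with a median of -0.11. For cytosolic ribosomal proteins none of 20 was higher and 13 lower (65%), with a median of 0.00. Of all genes tested 24.7% were lower in both treated libraries, and with equal peak numbers in the libraries the share was 21.3%. The summed length of the ribosomal genes was 107456 and 100313 bp before treatment and 91508 and 96648 after it.

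The promoters of the called genes were then read for the ISRE. A GAAA followed by 2 or 3 bases of any kind and a further GAAA was searched on both strands in the 250 bases before the RefSeq start (GRCh38.p14), overlapping matches counted each. A start was given for 33 of the 45 genes called higher, and 17 of them held a match (51.5%). The share was 50% of 40 tested interferon-stimulated genes that did not pass, 3.54% of 10510 genes tested and 4.73% of 15812 genes with a start. The GAS letters TTCNNNGAA, which can overlap an ISRE, were in 24.2% of the 33 and 5.39% of genes tested, and the AP-1 letters TGANTCA in 9.09% and 3.71%. The sequences below belong to the called genes with at least 2 ISRE matches whose 250 bases lie in no other gene, and show where the matches sit. They are OAS3 (chr12:112938224-112938473, plus strand), DDX60 (chr4:168318753-168319002, minus strand), TRIM69 (chr15:44736278-44736527, plus strand), IFI27 (chr14:94110486-94110735, plus strand) and ISG15 (chr1:1013247-1013496, plus strand), each 5′ to 3′ and ending 1 base before the start, with ISRE matches in capitals.
OAS3: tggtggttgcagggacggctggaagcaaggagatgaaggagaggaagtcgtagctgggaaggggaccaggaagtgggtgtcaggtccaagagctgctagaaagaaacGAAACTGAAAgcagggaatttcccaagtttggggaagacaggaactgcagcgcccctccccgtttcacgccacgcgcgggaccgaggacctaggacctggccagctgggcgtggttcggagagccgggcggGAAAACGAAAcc
DDX60: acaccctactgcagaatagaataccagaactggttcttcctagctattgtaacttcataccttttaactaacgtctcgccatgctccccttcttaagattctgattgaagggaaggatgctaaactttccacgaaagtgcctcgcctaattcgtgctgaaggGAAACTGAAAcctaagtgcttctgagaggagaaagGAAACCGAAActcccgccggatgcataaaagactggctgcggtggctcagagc
TRIM69: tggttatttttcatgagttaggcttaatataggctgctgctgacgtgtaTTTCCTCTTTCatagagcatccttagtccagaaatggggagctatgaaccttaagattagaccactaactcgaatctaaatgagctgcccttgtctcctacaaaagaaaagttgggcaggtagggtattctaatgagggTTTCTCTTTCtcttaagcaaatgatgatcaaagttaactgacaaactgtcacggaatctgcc
IFI27: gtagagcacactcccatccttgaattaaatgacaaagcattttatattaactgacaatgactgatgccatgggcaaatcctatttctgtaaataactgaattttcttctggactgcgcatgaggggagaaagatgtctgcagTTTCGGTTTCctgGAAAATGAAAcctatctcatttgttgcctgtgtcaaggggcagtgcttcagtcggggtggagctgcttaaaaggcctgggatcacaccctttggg
ISG15: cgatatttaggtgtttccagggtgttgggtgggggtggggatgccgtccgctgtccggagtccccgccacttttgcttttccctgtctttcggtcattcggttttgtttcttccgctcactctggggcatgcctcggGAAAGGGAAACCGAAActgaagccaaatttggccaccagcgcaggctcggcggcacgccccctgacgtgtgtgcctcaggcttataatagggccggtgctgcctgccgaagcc
In OAS3 the nearer match ends 3 bases from the end of the stretch, counting its last base as 1, in DDX60 44, in TRIM69 53, in IFI27 86 and in ISG15 98. In ISG15 the 2 matches overlap and read as 1 run of capitals. IFIH1 held 3 matches in a stretch that reaches into GCA. No match was found for OAS1, MX1, XAF1, HERC6, RSAD2 or NT5C3A, which says only that these letters are not in this stretch.

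The broadening lay on both sides of the start. Averaged over 71 interferon-stimulated starts, peaks covered 44.5% and 44.2% of the 1 kb before the start in untreated and 69.7% and 66.3% in treated libraries. Further out, from 5 to 1 kb before, the values were 7.4% and 6.3% against 22.2% and 20.3%, and from 1 to 5 kb after, 9.6% and 9.2% against 22.4% and 19.6%. Over 10439 starts of all genes tested, the 1 kb before the start was at 64.3% and 67.8% untreated and 62.0% and 68.0% treated, with no separation of the groups. From 5 to 1 kb before, the values were 16.4% and 15.1% against 12.8% and 15.3%. From 1 to 5 kb after, they were 20.9% and 19.3% against 15.5% and 19.9%, so treated 1 was the lowest on both flanks and the groups overlapped.

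**Figure D3:**
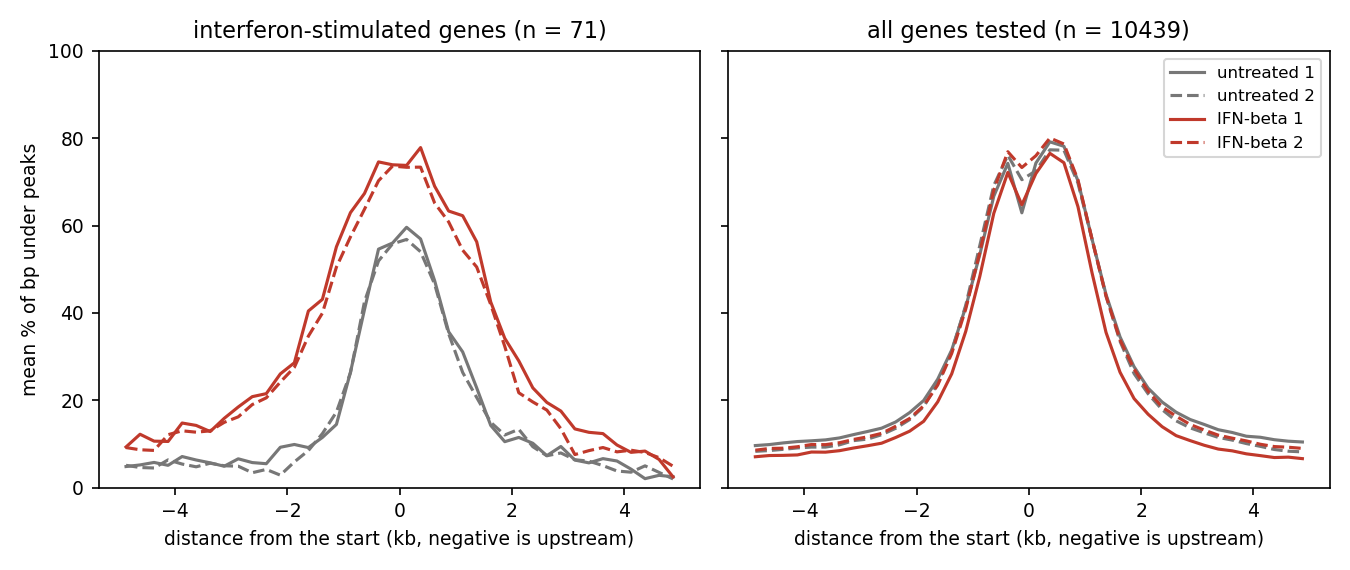
Mean share of bp under peaks (vertical axis) in 250 bp steps by distance from the start (horizontal axis, kb) in each library, for 71 interferon-stimulated starts (left) and 10439 starts of genes tested (right). The treated libraries (red) lie above the untreated (grey) on both sides of the start on the left, while on the right the lines run together.

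Peak height, as far as the lists give it, was read next to width. The deposited fold of a peak is comparable only within its own list, so the highest peak in each window was given as a percentile of all peaks of that library, as a description with no test. Among 72 interferon-stimulated genes with a peak in all 4 libraries, the median percentile was 84.5 and 82.1 untreated and 92.2 and 91.2 treated. The same over all 12151 such genes was 91.9, 90.3, 88.3 and 90.5. Both treated percentiles were above both untreated for 50 of the 72 (69.4%, against 8.48% of all such genes) and below for 4 (5.56%, against 28.9%). IFIT1, which did not pass by width, went from percentiles 80.8 and 80.8 to 91.5 and 91.6, and IRF9 from 87.4 and 78.4 to 97.7 and 97.4. IRF1 was at 95.0 and 91.0 against 92.8 and 93.4, with overlap.

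Merging the peaks of the 4 libraries on chromosomes 1 to 22 and X gave 101870 loci, of which 29969 had a peak in all 4. A peak in both treated and neither untreated library was found at 2342 loci (2.3%) and the opposite at 3349 (3.29%). The total of 5691 was close to the 4980 and 4921 that the 2 cross divisions of the libraries gave (untreated 1 with treated 1 against the rest, and untreated 1 with treated 2 against the rest). Presence alone therefore did not stand out from the noise level. Width did so more: with at least 1000 bp in both libraries that hold the locus, 131 were held by the treated pair alone (0.129%) and 7 by the untreated pair, 138 in all against 43 and 7. Of the cross pairs untreated 2 with treated 2 held 38, the pair with the largest shared covered length (Jaccard index 0.697). At 1500 bp the treated pair held 37, untreated 2 with treated 2 held 10 and the other 4 pairs 0. The exact permutation test, one-sided for a larger total, over the 3 divisions gave p = 0.333 for each total, the smallest it allows, so no such count can reach significance. Without 1 library the loci of this width held by the treated side alone numbered 216 and 244 (without untreated 1 and 2), 141 and 257 (without treated 1 and 2), and those held by the untreated side alone ranged from 10 (without treated 1) to 198 (without untreated 2).

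**Figure D4:**
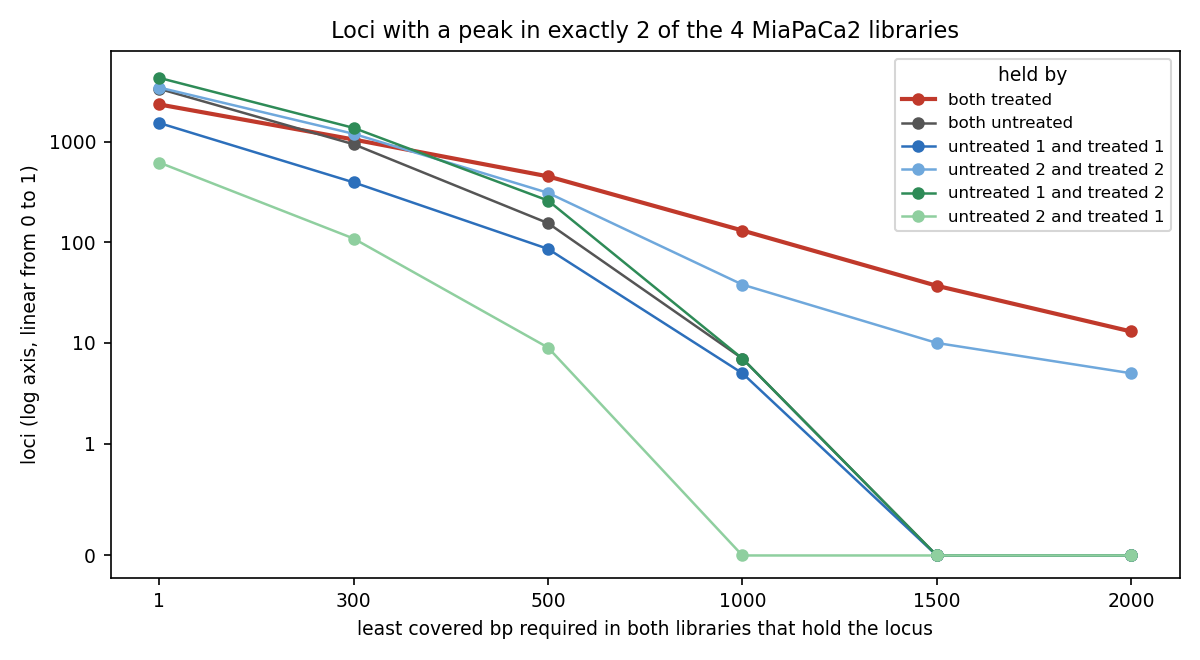
Number of loci with a peak in exactly 2 of the 4 libraries (vertical axis, log scale with a linear part from 0 to 1) against the least covered bp required in both (horizontal axis), 1 line per pair of libraries. With any peak the treated pair (red, 2342) lies below 3 other pairs, and from 500 bp on it lies above the other 5 pairs (131 at 1000 bp, against 38 for untreated 2 with treated 2 and 7 or fewer for the rest).

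The wide loci of the treated pair lay mostly away from gene starts, as did loci held by other pairs. Of the 131, 10.7% lay within 1 kb of a start, 11.5% from 1 to 5 kb, 55% from 5 to 50 kb and 22.9% beyond, against 28.6%, 13.3%, 36% and 22.2% of all 55691 loci with a peak in at least 2 libraries. Within 1 kb of a start lay 7.94% of the 3349 loci of the untreated pair and 2.63% of the 38 wide loci of untreated 2 with treated 2. An interferon-stimulated gene was the nearest gene for 11 of the 131 (8.4%, against 0.461% of those loci). The 38 wide loci of untreated 2 with treated 2 had 0 such genes, and 47.4% of them lay beyond 50 kb. By gene, 42 of 95 interferon-stimulated genes with a locus within 50 kb had one held by the treated pair alone (44.2%, against 9.3% of 13787 genes), and 6 had one held by the untreated pair alone (6.32%, against 14%).

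By fold within the libraries, the leading locus of the treated pair was chr7:135573440-135576740, 15523 bp from the start of NUP205, a nuclear pore gene. It had 3301 and 2870 bp in the treated libraries at percentiles 87.9 and 84.2. In CFPAC1 the same stretch had no peak in either untreated library and 2588 and 1853 bp after treatment. Next came a locus 30933 bp from CPEB3 (chr10:92209801-92212346, percentiles 87.2 and 80.4), one 50002 bp from ACAT1 (chr11:108068900-108071565, 81.9 and 79.8), those at MX2, PLSCR1, OAS1 and IFIH1, and one 4524 bp from MOV10, a helicase gene (chr1:112667579-112669915, 80.2 and 79.1). A locus 15355 bp from FAM133B and one 13438 bp from KPNA5, an importin gene, complete the 10. In the fit of locus widths 8 of these 10 passed, and those at FAM133B and IFIH1 did not (adjusted p = 0.226 and 0.0575). This is no separate support, because the loci were chosen for 0 bp in both untreated libraries. Such a pair adds almost no spread to the fit. The 10 leading loci of the untreated pair, near OSCP1, PINK1, TEF, PC, P2RX6, NRROS, QSOX2, PLCH2, YJU2B and BAIAP2L2, were weaker, with the smaller percentile at 71.0 at most, and they covered 246 to 1062 bp. None of these passed in the same fit (adjusted p = 0.318 to 0.688).

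The fit of covered length within loci found 111 of 55691 wider (0.199%) and 3 narrower (0.00539%) after treatment. Of the 111, 37 had peaks in both untreated libraries, 13 in one and 61 in neither, so widening of existing domains was part of the set. The 61 entered the fit only through the treated libraries, with almost no spread between the untreated ones. A locus 8324 bp from ZNF618 had 224 and 0 bp before treatment and 4596 and 4129 after it (chr9:113884633-113889228, 3.06 ± 0.24, adjusted p = 0.0076). One 50918 bp from RTL1, an imprinted gene, went from 676 and 254 to 5486 and 4831 bp (chr14:100847168-100852804, 2.63 ± 0.23, adjusted p = 0.0076), and one 13875 bp from ZCCHC2 from 934 and 719 to 5291 and 4459 bp (chr18:62503735-62509150, 2.07, adjusted p = 0.0076). A locus 12744 bp from SMCHD1 had no peak and later 3258 and 2564 bp (2.81, adjusted p = 0.00805), and loci at OAS1, OAS3, XAF1, MX2 and near NUP205 were also among the 10 with the lowest adjusted p. The nearest gene of 17 of the 111 was interferon-stimulated (15.3%). The 3 narrower loci were near NGEF (1830 and 2475 bp, then 287 and 471 bp, adjusted p = 0.0415), WWP1 (adjusted p = 0.0471) and TPPP (adjusted p = 0.0499). The count of 114 was 870 without untreated 1, 1887 without untreated 2 and 0 without either treated library.

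Most of these loci were also marked in CFPAC1. Of the 111 wider loci, 68 had a peak in all 4 bulk CFPAC1 libraries (61.3%), 24 in both treated and neither untreated (21.6%) and 5 in none (4.5%). Of the 131 wide loci of the treated pair, 60 were marked in all 4 (45.8%), 44 in the treated CFPAC1 libraries alone (33.6%) and 5 in none (3.82%). The same shares over all 55691 loci were 39.6%, 0.84% and 44%, and over the 38 wide loci of untreated 2 with treated 2 they were 26.3%, 0% and 52.6%. Over the 29969 loci with a peak in all 4 MiaPaCa2 libraries they were 60.9%, 0.34% and 24.7%. The 61.3% was therefore not particular to the 111. Median widths were 2337 bp for the 111, 1656 bp for the 29969 and 893 bp for all 55691, and a wider locus meets a peak more readily.

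Whether MiaPaCa2 responds differently from CFPAC1 was tested as the difference between the changes in the 2 lines, over 8 libraries and 14687 genes. The change was more positive in MiaPaCa2 at 10 genes (0.0681%) and more positive in CFPAC1 at 10 (0.0681%). Of 91 interferon-stimulated genes with a change in both lines 77 were positive in both. XAF1 had 3759 and 4074 bp in untreated and 4755 and 4588 bp in treated CFPAC1, where MiaPaCa2 started from 0 bp (difference 2.41 ± 0.18, adjusted p = 0.0137). OAS1 had 5251 and 3656 bp before treatment and 6965 and 6465 after it in CFPAC1 (2.21 ± 0.23, adjusted p = 0.0355), and NT5C3A had 4814 and 4861 bp and then 5474 and 4191 bp (2.24, adjusted p = 0.0404). SAMD9, an antiviral factor gene, and ACSL5, a fatty acyl-CoA synthetase gene, likewise had 0 bp in untreated MiaPaCa2 and were wide in all 4 CFPAC1 libraries (1.67 and 1.56, adjusted p = 0.0355 and 0.0367). In these 5 genes the treated MiaPaCa2 libraries remained below the untreated CFPAC1 libraries.

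IFIT1 went the other way. In CFPAC1 it had 1655 and 2227 bp before treatment and 6447 and 6588 after it, against the 4345 to 6084 bp of the MiaPaCa2 libraries (-1.28 ± 0.17, adjusted p = 0.0487). IDO1 had 933 and 1030 bp in untreated and 6130 and 5399 bp in treated CFPAC1 and 0 bp in all 4 MiaPaCa2 libraries (-2.14, adjusted p = 0.0355). CXCL10, with 4, 414, 5143 and 3058 bp in CFPAC1 and 0 bp in MiaPaCa2, did not pass (-2.79 ± 0.45, adjusted p = 0.0980). At MX1 and RIGI the difference was -0.09 and 0.14 (adjusted p = 0.920 and 0.876). Of the 20 genes 7 had 0 bp in all 4 MiaPaCa2 libraries, and such groups add almost no spread to the estimate. Leaving out any 1 of the 8 libraries reduced the count of 20 to between 0 and 7 (0 without CFPAC1 untreated 1, either treated CFPAC1 library, MiaPaCa2 untreated 1 or either treated MiaPaCa2 library).

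**Figure D5:**
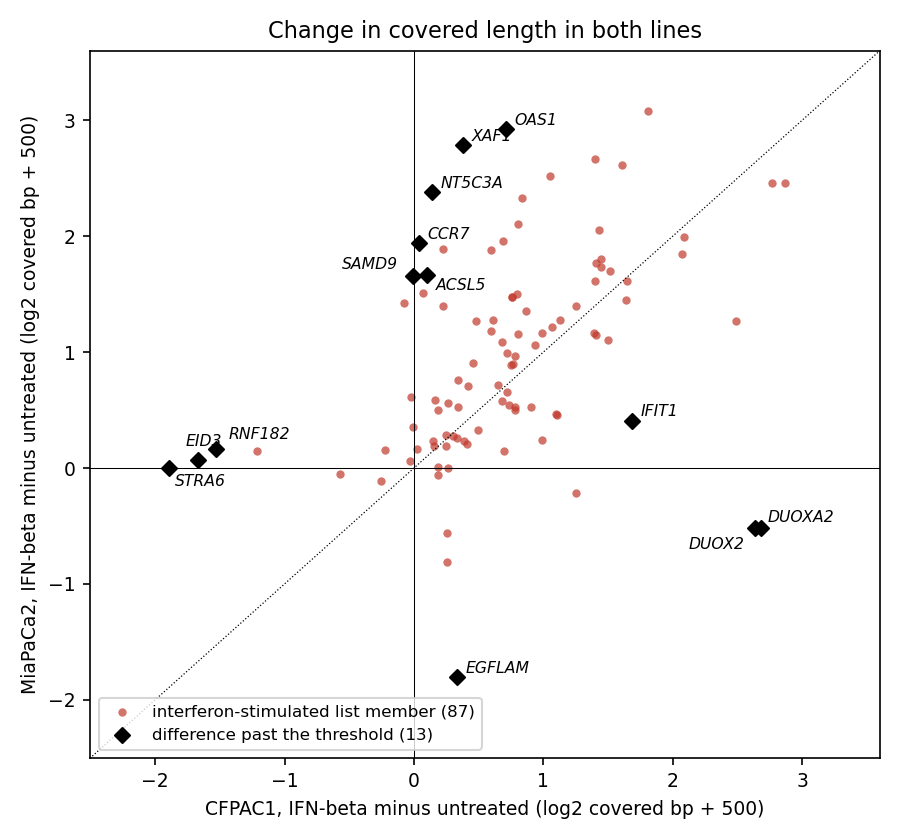
Change in covered length after IFN-β, as log2 of bp plus 500, in MiaPaCa2 (vertical axis) against CFPAC1 (horizontal axis), with the line of equal change dotted. Red points are 87 interferon-stimulated genes and black diamonds the 13 genes whose difference passed and that have a change in both lines, with OAS1 and XAF1 above the line and IFIT1 below it.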

How the data were processed

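H3K27ac ChIP-seq peak lists of 4 MiaPaCa2 libraries, and of 8 CFPAC1 libraries for comparison, were grouped by their titles. The submitters' processing notes name Trimmomatic 0.38, Bowtie2 2.2.6, SAMtools, MACS2 2.1.0.20150731 and the GRCh38 build, with no role or order. The control library, filters and depth are not given in the sources used here. The deposited narrowPeak files hold 1 list per library, and each peak has the authors' fold enrichment ratio and -log10 q. The deposited score column repeats the -log10 q on a coarser scale and was not used. The labels name 2 sequencing instruments without saying which library was run on which, so no batch could be examined.

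Only chromosomes 1 to 22 and X entered. Covered length was counted around the RefSeq start of 15812 genes and, for 4162 without one, the gene end with more coverage over all 12 libraries. With several starts the one with more coverage was used. A gene or locus entered the fit when at least 2 of its libraries had a peak, as log2 of bp plus 500 centred per library, in limma 3.58.1 in R 4.3.3 (trended prior, Benjamini-Hochberg over all tested). Loci were merged by overlap of 1 bp and assigned to the nearest start. Python 3.11.15 and pandas 2.3.3 were used.

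Tested on simulated data with 50 changed features per size, the gene fit called 14 at a change of 1 and 38 at 2, with 3 false calls among the unchanged genes, and the locus fit called 0 at both, 1 at 3 and 8 at 4, with 0 false calls, so that locus calls at 2 libraries per group miss most changes. The labels do not say whether libraries of a group came from separate cultures, and p-values then measure only the spread between these libraries. Named genes are all called list members, the 12 largest rises outside lists, the falls, and a panel of interferon genes, of which 2 are not reported here. Members, lists and tests were chosen with earlier results of these data known. Alternatives covered pseudocount, filter, window, peak number, q, centring, quantile normalization, fit design and leaving out libraries.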

Additional observations from a re-analysis of the deposited data

Results flagged for a closer look

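The difference between the changes of the 2 lines passed the limma interaction test at 20 genes, which is what marks them here. It was more positive in MiaPaCa2 at XAF1 (2.41), OAS1 (2.21), NT5C3A (2.24), SAMD9 (1.67) and ACSL5 (1.56), which had 0 to 309 bp in untreated MiaPaCa2, more after treatment, and were already covered in CFPAC1, and at CCR7, a chemokine receptor gene (1.9). It was also more positive at OMP (2.13), STRA6 (1.9), EID3 (1.73) and RNF182 (1.69), where the MiaPaCa2 groups overlapped or had 0 bp throughout and coverage in CFPAC1 was lower after treatment. It was more positive in CFPAC1 at DUOXA2 (-3.2) and DUOX2 (-3.15), a shared window with 200 and 330 bp in untreated and 0 bp in treated MiaPaCa2, and at IFIT1 (-1.28). It was likewise at CXCL11 (-2.91), MORC1 (-2.86), PNOC (-2.32), APOBEC3A (-2.32), CHRNA1 (-2.29) and IDO1 (-2.14), all with 0 bp in the 4 MiaPaCa2 libraries. EGFLAM (-2.14) fell in MiaPaCa2 and had 1083 to 1371 bp in CFPAC1. For genes at 0 bp in 1 line a decrease there could not be seen.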

How the results depend on the processing

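The 47 genes called by width became 150 without the filter, 19 with equal peak numbers, 27 with a -log10 q of at least 5, 25 with quantile normalization, 0 without centring (700 at an unadjusted p under 0.05), 108 with all 6 groups and 31 with the larger gene end. Leaving out 1 library gave 0 to 818. The 114 loci called by width became 64 and 33 with pseudocounts of 100 and 2000 bp, 1425 without the filter, 0 with equal peak numbers (4640 at an unadjusted p under 0.05), 0 with a -log10 q of at least 5 (3072) and 0 without centring (7045), and 0 to 1887 with 1 library left out. The 20 genes that differed between lines became 35 and 4 with pseudocounts of 100 and 2000 bp, 67 without the filter, 12 with equal peak numbers and 2 with a 10 kb window, and 0 to 7 with 1 library left out. The 5691 loci held by 1 group alone became 3031 with a -log10 q of at least 5, where 1634 were held by the treated pair, 3386 with peaks within 500 bp merged, 4690 with equal peak numbers, where 2929 were held by the treated and 1761 by the untreated pair, and 16314 to 30886 with 1 library left out. The 131 wide loci of the treated pair became 210 with a -log10 q of at least 5, and 141 to 257 with 1 library left out. The 73 interferon-stimulated genes above both untreated libraries became 70 to 76 in the alternatives with all 4 libraries, against 9.35% to 11.8% of all genes. With 1 library left out they were 65 to 81, against 12.6% to 31.4% of all genes. Without a treated library 81 members were tested rather than 92. The contrast with all genes was thus smaller in those runs. The deviations of same-numbered libraries had a correlation of -0.026 in MiaPaCa2 and 0.232 in CFPAC1, across genes. The labels give no shared source for a number, so the numbers were not taken as pairing, and a replicate block gave 133 genes, 1121 loci and 0 genes that differ between lines. Direction turned at EGFLAM with the larger gene end (0.23), at IRF7 with 1 library left out (-1.34 to 0.13, the latter without treated 2), at TYK2 without centring (-0.02), at IFNAR1 with equal peak numbers (-0.0019), without centring (-0.05) and with 1 library left out (-0.05 without treated 1 to 0.14), and at STAT3 with a -log10 q of at least 5 (0.04), a 2 kb window (0.09), and with 1 library left out (-0.15 to 0.04, positive without untreated 2, 0.03, and without treated 1). The causes were not tested. All 47 called genes kept their direction in each fit they entered with 1 library left out, which their choice on these same libraries made likely beforehand. Depth is unknown, so an absent peak can be an unread one.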
